A study of Mus musculus with 23 samples.

Results

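The genes described here write or erase trimethylation of histone H3 at lysine 27, a mark of silenced chromatin. They are the subunits Ezh1, Ezh2, Eed, Suz12, Jarid2, Phf19, Rbbp4 and Rbbp7 of Polycomb repressive complex 2 (PRC2) and the demethylases Kdm6a and Kdm6b. They were chosen by symbol, and all 10 of 10 were found among the 24063 genes listed in each deposited table. All 10 also passed the filter on low counts. RNA-seq was done on total RNA of 23 mouse libraries, each from cells sorted as CD138+B220-, the surface phenotype of plasma cells. The control group (n = 3) was bone marrow of mice carrying only the IgG1-Cre transgene. The 4 lines called VQ (VQ-D1, VQ-D4, VQ-D2 and VQ-D5, n = 4 each) carry Vκ*MYC, the NrasLSL Q61R/+ allele and IgG1-Cre, and were grown in transplanted recipients. The line t-VK12653 (n = 4) carries Vκ*MYC alone and was also grown in recipients. Vκ*MYC places MYC under immunoglobulin kappa control in B-lineage cells, and IgG1-Cre acts in B cells that express the IgG1 constant region. Each line stems from 1 donor, so n counts libraries and not donors, and t-VK12653 is the only donor without the Nras allele. VQ-D1 and t-VK12653 have 2 libraries each of bone marrow and spleen, VQ-D2 has 2 each of spleen and lymph node, and VQ-D5 has 2 each of bone marrow and lymph node. VQ-D4 has 1 library each of bone marrow, liver, spleen and lymph node. No source used here states the age or sex of the mice.

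In PRC2, EZH2 or EZH1 is the methyltransferase, EED binds the finished mark, and SUZ12 holds the core together with the histone-binding proteins RBBP4 and RBBP7. JARID2 and PHF19 are accessory subunits that help to bring the complex to chromatin. KDM6A (UTX) and KDM6B (JMJD3) remove the mark, and KDM6A is also part of a complex that methylates lysine 4 of histone H3. In the B lineage EZH2 is high in dividing germinal centre cells, and both EZH2 and KDM6A have been studied as myeloma genes.

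The promoters of the 3 genes with the widest range of RNA levels are shown because a loss of RNA in some lines and not in others is the main pattern in these data. They are RefSeq windows of build GRCm38.p6, from 250 bases before to 50 bases after a transcript start, printed 5′ to 3′ on the gene's strand. Capitals mark 2 motifs searched on both strands, a match on the other strand showing as the reverse complement; the motifs share no bases here: an E2F-type motif (TTTNNCGC) and the E-box CACGTG, the core site of MYC and its partner MAX.
Ezh2 (chr6:47594981-47595280, minus strand): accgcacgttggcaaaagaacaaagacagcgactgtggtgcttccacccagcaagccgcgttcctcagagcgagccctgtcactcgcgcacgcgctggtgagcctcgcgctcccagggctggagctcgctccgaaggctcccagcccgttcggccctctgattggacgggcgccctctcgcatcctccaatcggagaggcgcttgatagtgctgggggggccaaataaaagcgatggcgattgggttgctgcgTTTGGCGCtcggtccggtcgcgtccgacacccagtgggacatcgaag
Phf19 (chr2:34913927-34914226, minus strand): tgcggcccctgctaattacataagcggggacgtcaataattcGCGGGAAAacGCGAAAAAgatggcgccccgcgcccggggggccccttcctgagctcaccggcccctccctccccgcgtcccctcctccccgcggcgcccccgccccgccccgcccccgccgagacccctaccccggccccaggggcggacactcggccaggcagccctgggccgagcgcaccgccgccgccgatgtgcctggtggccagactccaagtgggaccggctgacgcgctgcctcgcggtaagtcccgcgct
Kdm6a (chrX:18162325-18162624, plus strand): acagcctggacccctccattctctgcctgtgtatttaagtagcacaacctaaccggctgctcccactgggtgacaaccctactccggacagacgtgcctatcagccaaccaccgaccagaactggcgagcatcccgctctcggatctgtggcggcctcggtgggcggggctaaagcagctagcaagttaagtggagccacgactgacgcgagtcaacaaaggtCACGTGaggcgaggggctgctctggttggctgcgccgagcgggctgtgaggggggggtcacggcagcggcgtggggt
The Ezh2 window has 1 E2F-type match and no E-box. The Phf19 window has 2 E2F-type matches, both on the other strand, and the Kdm6a window has 1 E-box. Of the other members with a window, Suz12 has 1 E2F-type match and Rbbp4 has 1 E-box. The table holds 10 windows for 9 members, with 2 for Jarid2 and none for Kdm6b. Of all 32851 windows in it, 5.17% hold the E2F-type motif and 7.15% the E-box. The members' windows are rich in CpG, with a median of 27.5 CpG dinucleotides against 7 over all windows. A match is a description of the letters only.

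Total counts per library ran from 2685579 to 10047314, and levels are given as CPM, counts scaled by library total, after TMM scaling. The plasma cell markers were expressed in all groups, with a summed level of 36376 to 66985 CPM in controls and 5966 to 17819 CPM in the lines; Cd38 was at 0 in t-VK12653. B cell markers summed to 955 to 1443 CPM in controls and 67.5 to 389 CPM in the lines, with Blk at 0 reads in all lines but VQ-D5. Neutrophil markers summed to 3248 to 9102 CPM in controls, to 21.9 to 1198 CPM in VQ-D1 and to at most 151 CPM in each library of the other lines. Control replicate 1 stands apart, since it holds both Xist (1350 CPM, against 3.41 and 3.94 CPM in the other controls) and the Y-linked Ddx3y (41.8 CPM). VQ-D1 replicate 1 has the most neutrophil RNA of the tumour libraries. Values without these libraries are given beside the results for Ezh2, Phf19, Kdm6a and Kdm6b.

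**Figure D1:**
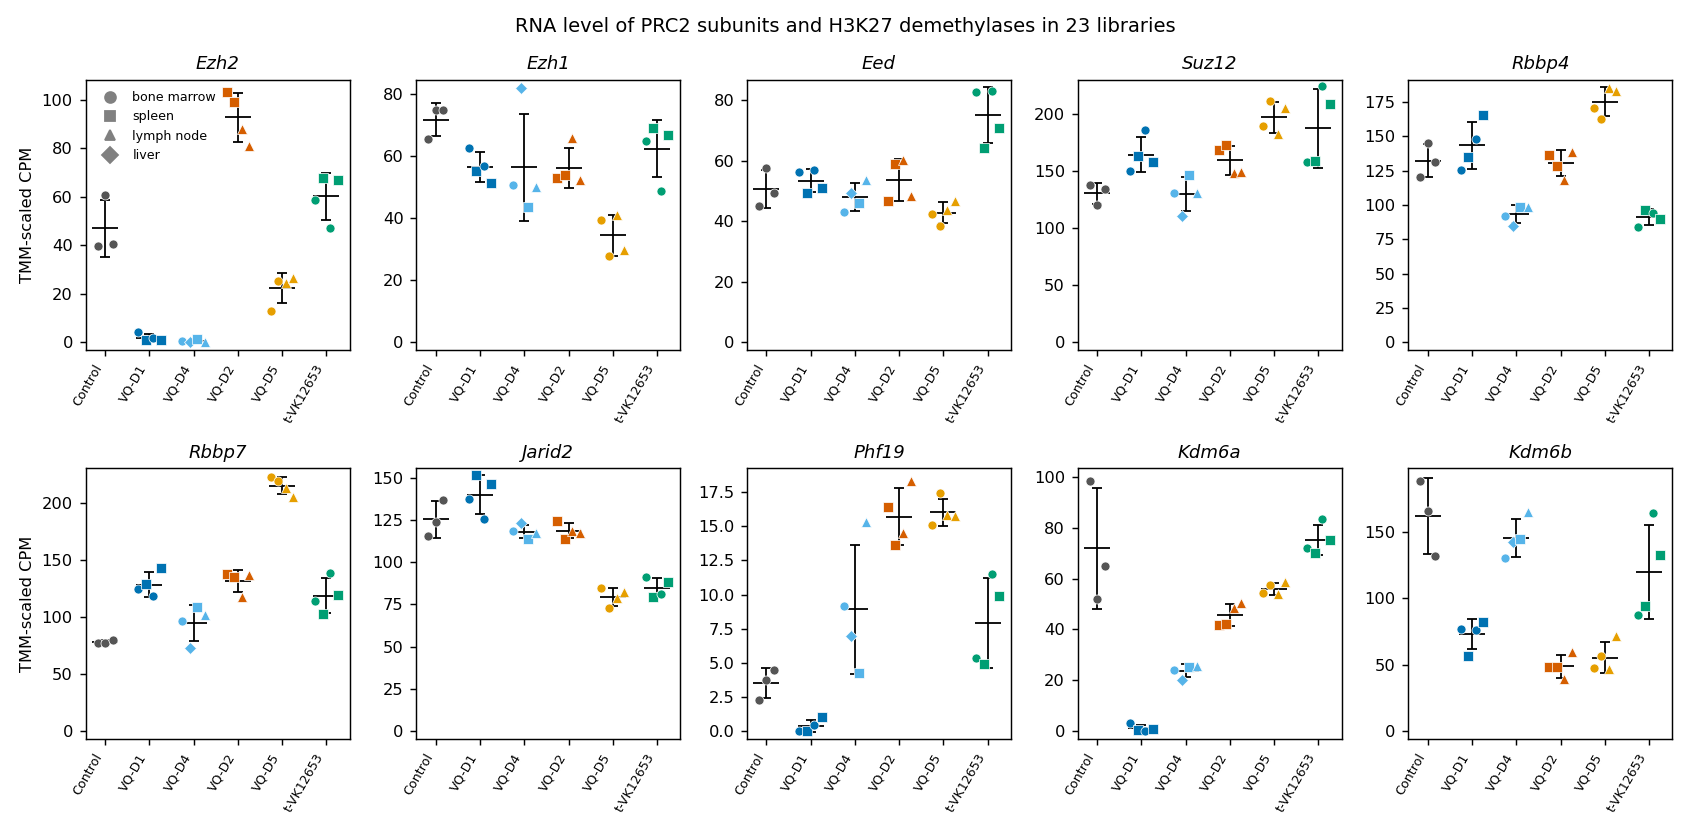
RNA level of the 10 genes in each library (y axis, TMM-scaled CPM) by group (x axis). Point shape gives the tissue, and black bars give the group mean and SD. Ezh2 lies near 0 in VQ-D1 and VQ-D4, Kdm6a and Phf19 lie near 0 in VQ-D1, and the core subunits Eed, Suz12, Rbbp4 and Rbbp7 lie between 38.3 and 224 CPM in every library.

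The catalytic subunit Ezh2 was nearly absent from 2 of the 4 VQ lines and most abundant in another VQ line, VQ-D2. In control plasma cells it was at 39.9, 60.7 and 40.7 CPM. In VQ-D1 it was at 4.20 and 1.74 CPM in bone marrow and 0.824 and 0.697 CPM in spleen. In VQ-D4 it was at 0.504 CPM in bone marrow, 1.30 CPM in spleen and 0 reads in liver and lymph node. Every VQ-D1 and VQ-D4 library thus lay far below the lowest control. With 0 reads, the level could be up to 0.464 CPM in the liver library and 0.959 CPM in the lymph node library, counting error alone considered. VQ-D5 was intermediate at 12.9 and 25.0 CPM in bone marrow and 24.5 and 26.5 CPM in lymph node. VQ-D2 was highest at 103.2 and 99.4 CPM in spleen and 88.1 and 81.1 CPM in lymph node, and t-VK12653 had 58.7, 67.9, 47.2 and 67.2 CPM. The groups ranked VQ-D4, VQ-D1, VQ-D5, control, t-VK12653 and VQ-D2 from low to high. Only VQ-D4 and VQ-D1, and control and t-VK12653, overlapped with their neighbour in this order.

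Against control, with edgeR's quasi-likelihood test in a fit of all 23 libraries with group and tissue terms, Ezh2 fell in VQ-D1 (log2 difference −4.90, SE 0.384, adjusted p = 3.8e-09). It also fell in VQ-D4 (−6.39, SE 0.543, adjusted p = 1.47e-08) and in VQ-D5 (−1.13, SE 0.323, adjusted p = 0.00488). In 4 of 4 libraries of each of these lines the level was below every control. The 45 reads over the 4 VQ-D1 libraries and 8 reads over the 4 VQ-D4 libraries stand against 456 reads over the 3 controls. The log2 difference was 0.82 in VQ-D2 (SE 0.354, adjusted p = 0.0564) and 0.25 in t-VK12653 (SE 0.302, adjusted p = 0.502), and neither passed 0.05. Every VQ-D2 library was nevertheless above every control, and the VQ-D2 difference passed the threshold without Control replicate 2, VQ-D1 replicate 1, VQ-D5 replicate 1 or t-VK12653 replicate 3 (adjusted p 0.0155 to 0.0409). VQ-D2 has no bone marrow library, and the controls have no other tissue. Each VQ-D2 difference from control therefore rests on tissue terms that the other lines supply. The 3 Ezh2 falls were called whichever single library was left out, with adjusted p of at most 0.0427. In bone marrow alone the Ezh2 difference was −4.14 in VQ-D1 and −6.46 in VQ-D4. In bulk RNA, fewer cells that express a gene and less RNA per cell cannot be told apart.

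Markers of other cells moved with Ezh2 in some libraries. Control replicate 2 had the highest Ezh2 of the controls (60.7 CPM) and the highest neutrophil sum (9102 CPM). The same library was also highest of the controls in erythroid markers (886 CPM, against 144 and 182 CPM), monocyte and macrophage markers (1570 CPM, against 803 and 515 CPM) and proliferation genes (2708 CPM, against 1497 and 1488 CPM). Erythroid markers were lower than control in all 5 lines (11 of 11 called in each, against 26.9% to 32.5% of all genes). VQ-D1 replicate 1 had the highest Ezh2 of its line and a neutrophil sum of 1198 CPM. Without Control replicate 1 and VQ-D1 replicate 1, the Ezh2 difference in VQ-D1 was −5.56 on the log2 scale. The part of these cells in the Ezh2 reads was not tested.

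Proliferation genes are given beside Ezh2, which is high in dividing cells. The 22 proliferation genes summed to 3783 to 5581 CPM in VQ-D1 and 4861 to 6231 CPM in VQ-D2, the lines with mean Ezh2 levels of 1.86 ± 1.62 and 92.9 ± 10.2 CPM (SD, n = 4 each). In VQ-D5, with Ezh2 at 22.2 ± 6.25 CPM, they summed to 6379 to 6777 CPM, the highest of the groups. VQ-D4, with the lowest Ezh2, had the lowest proliferation sum of the lines (2102 to 3242 CPM), and t-VK12653 had 3243 to 3881 CPM. Controls summed to 1488 to 2708 CPM. Of these genes 16 were called higher and 0 lower in VQ-D1, 8 and 2 in VQ-D4, and 21 and 0 in VQ-D2. The counts were 22 and 0 in VQ-D5, and 9 and 1 in t-VK12653. Over all genes tested, 26.9% to 32.5% were called in each direction per line.

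The paralogue Ezh1, the methyltransferase of PRC2 in many resting cells, was called higher in no line, those without Ezh2 included. Control levels were 65.5, 74.7 and 74.9 CPM. VQ-D1 had 62.7, 55.2, 56.8 and 51.3 CPM, and VQ-D4 had 50.5, 43.5 and 49.9 CPM in bone marrow, spleen and lymph node and 81.9 CPM in liver. All VQ-D1 values lie below the controls, while VQ-D4 overlaps them through its liver library. VQ-D5 was lowest at 39.3, 27.8, 40.9 and 29.6 CPM and overlapped with no other group. VQ-D2 ran from 52.2 to 65.7 CPM and t-VK12653 from 48.8 to 69.02 CPM. Ezh1 fell in VQ-D5 (log2 difference −1.11, SE 0.159, adjusted p = 2.87e-06) and in VQ-D4 (−0.60, SE 0.166, adjusted p = 0.0042). The fit gives the liver library a term of its own, so the VQ-D4 value rests on the other 3 libraries. With counts summed per recipient, where liver enters, the Ezh1 difference in VQ-D4 was −0.10 and not called, and without a tissue term it was −0.33 (adjusted p = 0.107). The log2 differences in VQ-D1 (−0.34, adjusted p = 0.0579) and VQ-D2 (−0.39, adjusted p = 0.0589) did not pass. Leaving out VQ-D1 replicate 1, VQ-D5 replicate 1 or VQ-D5 replicate 4 brought both past the threshold. Leaving out any VQ-D2 library did so for VQ-D1, and leaving out VQ-D4 replicate 1 or VQ-D2 replicate 3 did so for VQ-D2 (Ezh1 adjusted p 0.022 to 0.0471 over these). With RLE scaling both Ezh1 differences were called (−0.42 and −0.47).

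Per length, Ezh2 and Ezh1 were about equally abundant in control cells, and Ezh2 made up 46.1% to 56.1% of their summed TPM, the deposited transcript level corrected for gene length. The share was 2.09% to 9.52% in VQ-D1 and 0% to 4.48% in VQ-D4. It was 67.8% to 75.4% in VQ-D2, 58.7% to 61.3% in t-VK12653 and 34.1% to 58.6% in VQ-D5. In VQ-D5 both genes were lower than in controls, and its share overlaps the control range. The RNA of the methyltransferases was mostly Ezh1 in VQ-D1 and VQ-D4, mostly Ezh2 in VQ-D2 and t-VK12653, and mixed in the other groups.

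**Figure D2:**
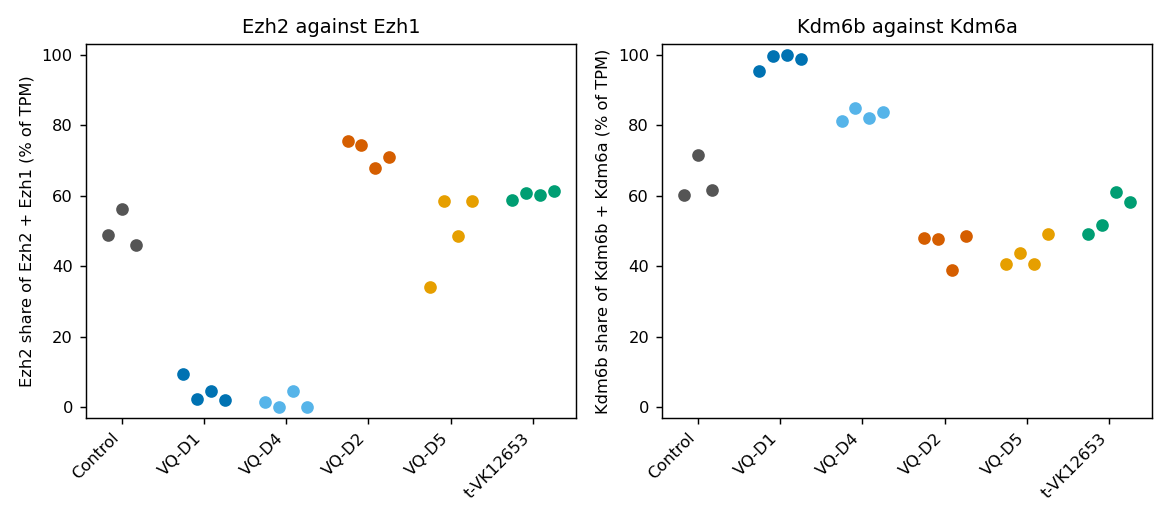
Share of Ezh2 in the summed TPM of Ezh2 and Ezh1 (left) and of Kdm6b in the summed TPM of Kdm6b and Kdm6a (right), in percent. Each point is 1 library, by group on the x axis; VQ-D1 and VQ-D4 have almost no Ezh2 share and the highest Kdm6b shares.

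The expressed genes nearest to Ezh2 on each side had levels in VQ-D1 and VQ-D4 close to those of controls. Ezh2 lies on the minus strand of chromosome 6 from 47530139 to 47595341 (GRCm38, GENCODE vM21). Cul1, a ubiquitin ligase scaffold whose nearer end lies 4 kb beyond one end of Ezh2, was at 97.5 CPM in controls on average. Its means were 114 CPM in VQ-D1 and 107 CPM in VQ-D4. Pdia4, a chaperone of the endoplasmic reticulum 201 kb beyond the other end, was at 3702, 4451 and 3305 CPM. The next 2 genes on that side, Zfp398 and Zfp282, had VQ-D1 and VQ-D4 means of 0.749 to 1.998 times the control mean. On the Cul1 side the next were Zyx and Casp2, 5170 and 5248 kb away, with ratios of 0.473 to 1.94. These neighbours were the nearest 3 on each side with at least 10 CPM in controls, and they were not tested for a difference from Ezh2. Gm26625 and Gm44282 overlap Ezh2 in the annotation and are not among the listed genes.

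**Figure D3:**
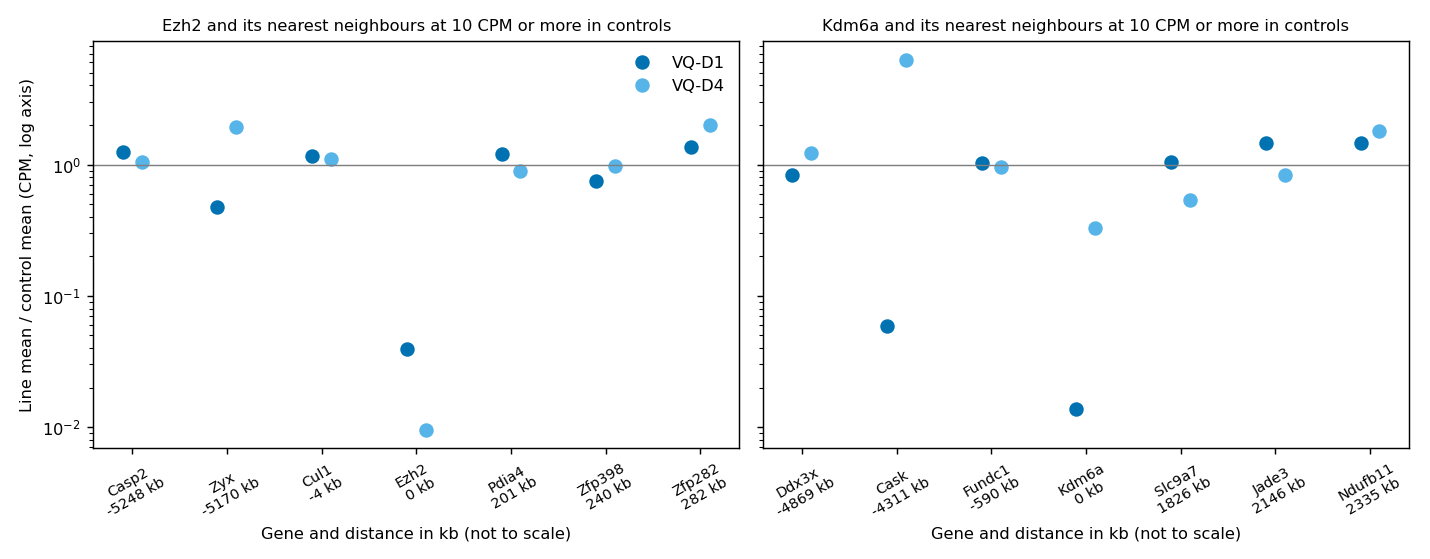
Mean CPM of VQ-D1 and VQ-D4 divided by the control mean (y axis, log scale) for Ezh2 (left), Kdm6a (right) and their nearest neighbours on each side with at least 10 CPM in controls. Labels give the gene and its distance in kb; Ezh2 is at 0.0396 and 0.00956 of control, while Cul1, 4 kb away, is at 1.16 and 1.10.

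The core subunits that EZH2 and EZH1 share varied far less than Ezh2. Between the highest and lowest group mean there was a 1.52-fold range for Suz12, 1.76-fold for Eed, 1.92-fold for Rbbp4 and 2.76-fold for Rbbp7. For Ezh2 the highest and lowest group means were 92.9 CPM in VQ-D2 and 0.450 CPM in VQ-D4, and the latter rests on 8 reads. Eed was at 45.1, 57.6 and 49.4 CPM in controls. It was at 56.3, 49.4, 57.0 and 51.0 CPM in VQ-D1 and 43.1, 49.2, 46.1 and 53.7 CPM in VQ-D4, so both lines with little Ezh2 overlapped the controls. Eed was called higher in t-VK12653 only (82.8, 64.3, 83.1 and 70.7 CPM; log2 difference 0.63, SE 0.131, adjusted p = 0.000313), and each value lay above all controls. VQ-D5 was lowest, from 38.3 to 46.7 CPM (log2 difference −0.28, adjusted p = 0.0756). Without VQ-D2 replicate 1, 2 or 4 this VQ-D5 difference of Eed passed the threshold (adjusted p 0.0171 to 0.049), as it did with RLE scaling (−0.37). Eed overlaps the antisense gene E230029C05Rik, and reads of the pair could be shared.

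Suz12 was at 137, 120 and 134 CPM in controls and was called lower in no line. VQ-D5 had 189, 211, 182 and 205 CPM, a rise of 0.65 on the log2 scale (SE 0.128, adjusted p = 0.000132). In t-VK12653 it had 157, 158, 224 and 208 CPM, a rise of 0.51 (SE 0.125, adjusted p = 0.00135). All libraries of both lines were above all controls. In VQ-D1 (150.0 to 186 CPM) and VQ-D2 (148 to 172 CPM) the log2 differences were 0.33 and 0.34 (adjusted p = 0.026 and 0.045). VQ-D4 overlapped the controls at 110.2 to 146 CPM (0.09, adjusted p = 0.594). Suz12 lost its VQ-D1 call without Control replicate 2 or VQ-D1 replicate 3 (adjusted p = 0.125 and 0.165) and both its VQ-D1 and VQ-D2 calls with RLE scaling. The VQ-D2 call ended for 14 of the 23 libraries left out one at a time (adjusted p 0.0509 to 0.161): Control replicate 2, VQ-D1 replicates 2 to 4, VQ-D4 replicates 2 to 4, all 4 of VQ-D2, VQ-D5 replicates 2 and 3, and t-VK12653 replicate 2.

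The histone-binding subunits Rbbp4 and Rbbp7, which also serve other chromatin complexes, differed from each other. Rbbp7 was at 76.5, 77.1 and 79.6 CPM in controls. It was highest in VQ-D5 at 222, 219, 213 and 205 CPM, a rise of 1.495 on the log2 scale (SE 0.109, adjusted p = 1.02e-10). It also rose in VQ-D1 by 0.71 (118 to 143 CPM), in VQ-D2 by 0.77 (117 to 137 CPM) and in t-VK12653 by 0.59 (102.7 to 139 CPM), with every library above the controls. In VQ-D4 it rose by 0.40 (adjusted p = 0.00567), although its liver library at 72.3 CPM lay below them. That VQ-D4 call of Rbbp7 ended in bone marrow alone, with 1 VQ-D4 library (0.32, adjusted p = 0.125), and with counts summed per recipient (0.20, adjusted p = 0.251). Rbbp7 overlaps Txlng on the opposite strand, and the strand setting of the counting is unknown here.

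Rbbp4 was at 121, 145 and 132 CPM in controls. It fell in VQ-D4 (91.7, 84.5, 98.6 and 98.5 CPM), with a log2 difference of −0.54 (SE 0.111, adjusted p = 0.000331). Rbbp4 also fell in t-VK12653 (84.1, 96.7, 94.3 and 89.9 CPM), with a log2 difference of −0.60 (SE 0.102, adjusted p = 3.68e-05). It rose in VQ-D5 (171, 163, 185 and 183 CPM) by 0.35 (SE 0.104, adjusted p = 0.00528). These 3 lines do not overlap the controls, while VQ-D1 (126 to 166 CPM) and VQ-D2 (118 to 139 CPM) do. Rbbp4 shares a stretch of chromosome 4 with Sync on the other strand.

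Of the accessory subunits, Jarid2 was called lower than control in 2 lines and not called in 3. Controls had 116, 124 and 137 CPM. VQ-D5 had 85.0, 72.8, 78.6 and 82.3 CPM, a log2 difference of −0.67 (SE 0.1001, adjusted p = 4.51e-06), and t-VK12653 had 91.1, 79.6, 81.1 and 88.6 CPM, a log2 difference of −0.59 (SE 0.0976, adjusted p = 2.61e-05). Both lie below all controls and below all libraries of VQ-D1 (126 to 152 CPM), VQ-D2 (114 to 125 CPM) and VQ-D4 (114 to 123 CPM), whose differences did not pass (adjusted p 0.248 to 0.353).

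Phf19, a Tudor-domain subunit that binds methylated lysine 36 of histone H3, was low in all groups and split the lines. Controls had 2.27, 3.75 and 4.47 CPM, from 35 reads in all. VQ-D1 had 0 reads in 2 libraries and 0.386 and 0.976 CPM in the other two, below every control. VQ-D2 had 16.4, 13.6, 14.5 and 18.3 CPM and VQ-D5 had 15.1, 17.4, 15.9 and 15.7 CPM, above every control. VQ-D4 (9.19, 6.96, 4.22 and 15.4 CPM) and t-VK12653 (5.37, 4.89, 11.5 and 9.87 CPM) lay between, and VQ-D4 overlapped the controls through its spleen library. On the log2 scale Phf19 fell in VQ-D1 (−2.99, SE 0.653, adjusted p = 0.000502), where 7 of the 11 reads lie in replicate 4 and the difference without that library was −3.96. It rose in VQ-D2 by 2.17 (SE 0.521, adjusted p = 0.00123) and VQ-D5 by 2.08 (SE 0.461, adjusted p = 0.000478). It rose in VQ-D4 by 1.40 (adjusted p = 0.0221) and in t-VK12653 by 1.22 (adjusted p = 0.0375).

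All of these Phf19 differences rest on few reads, and both smaller rises depended on single libraries. The VQ-D4 call ended without Control replicate 1, VQ-D4 replicate 1 or VQ-D4 replicate 4 (adjusted p 0.0689 to 0.0767) and in bone marrow alone. The t-VK12653 call of Phf19 ended without Control replicate 1 or 2, VQ-D4 replicate 3, VQ-D2 replicate 2 or 4, or t-VK12653 replicate 3 or 4 (adjusted p 0.0501 to 0.158). Without Control replicate 1 and VQ-D1 replicate 1 together, neither rise of Phf19 was called (adjusted p = 0.0549 in VQ-D4 and 0.0992 in t-VK12653). At 3 counts, the smallest level that could be told from 0 was 0.74 CPM in VQ-D1 replicate 1 and 0.494 CPM in replicate 2, the libraries with 0 reads of Phf19. Psmd5, a proteasome assembly factor 18.8 kb from Phf19, was at 30.8 CPM in controls and 26.0 CPM in VQ-D1, and Traf1, a signalling adaptor 27.7 kb away on the other side, at 24.6 and 5.15 CPM.

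The demethylase Kdm6a was nearly absent from VQ-D1 and reduced in VQ-D4. Controls had 98.6, 52.2 and 65.2 CPM. In VQ-D1 it was at 2.96 CPM and 0 reads in bone marrow and at 0.165 and 0.836 CPM in spleen, 19 reads in all against 705 in the controls. VQ-D4 had 23.8, 20.0, 25.3 and 25.6 CPM in bone marrow, liver, spleen and lymph node. VQ-D2 had 41.6, 42.0, 48.3 and 50.3 CPM, VQ-D5 had 54.4, 57.4, 53.8 and 58.7 CPM and t-VK12653 had 72.2, 70.0, 83.5 and 75.4 CPM. From low to high the groups ranked VQ-D1, VQ-D4, VQ-D2, VQ-D5, control and t-VK12653, and no 2 of the 4 VQ lines overlapped. Kdm6a fell in VQ-D1 (log2 difference −6.56, SE 0.434, adjusted p = 5.63e-10) and in VQ-D4 (−1.51, SE 0.333, adjusted p = 0.000856). The log2 differences of −0.63 in VQ-D2 (adjusted p = 0.123), −0.39 in VQ-D5 (adjusted p = 0.263) and 0.12 in t-VK12653 (adjusted p = 0.742) did not pass.

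Which libraries entered mattered for the smaller differences of Kdm6a. All VQ-D2 libraries were below all controls, and the VQ-D2 difference passed without Control replicate 2 (−0.84, adjusted p = 0.047) or VQ-D1 replicate 1 (−0.70, adjusted p = 0.0194) and with DESeq2 (−0.69, adjusted p = 0.0367). With bone marrow libraries alone, where VQ-D4 has 1 library, the VQ-D4 difference of Kdm6a was −1.59 and not called (adjusted p = 0.106), and in VQ-D1 it was −6.25 (adjusted p = 0.00064). Without VQ-D1 replicate 1, the library with 12 of the 19 reads, the VQ-D1 difference was −7.78.

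Kdm6a is X-linked and is expressed from both X chromosomes in females, and Uty is its Y-linked relative, so the sex-linked RNA is given beside it. Uty was at 19.5, 44.0 and 33.1 CPM in controls and at most at 0.464 CPM in any tumour library. Xist was low in the tumour libraries as well, at 36.3 CPM in VQ-D1 replicate 1 and 87.2 CPM in VQ-D5 replicate 2. All other tumour libraries had 1.31 to 7.76 CPM of Xist, so these RNAs do not give the sex of the lines. Control replicate 1, with Xist at 1350 CPM, had the highest Kdm6a and the lowest Uty of the controls. Leaving that library and VQ-D1 replicate 1 out gave log2 differences of −7.46 in VQ-D1 and −1.23 in VQ-D4, both called. A further 3 X-linked genes that escape inactivation were present in VQ-D1: Ddx3x at 308 ± 7.12 CPM (371 ± 68.3 in controls), Kdm5c at 144 ± 10.9 CPM (168 ± 34.98) and Eif2s3x at 21.6 ± 4.71 CPM (9.93 ± 1.69; SD, n = 4 and n = 3). The X-linked member Rbbp7 was higher in VQ-D1 than in controls. Fundc1, the nearest gene before Kdm6a at 10 CPM or more and 590 kb away, was at 31.3 CPM in controls and 32.0 CPM in VQ-D1. Cask, further away, was at 11.3 CPM in controls, 0.663 CPM in VQ-D1 and 70.9 CPM in VQ-D4. Kdm6a lies on the X chromosome from 18162575 to 18279936, and no annotated gene overlaps it.

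Kdm6b, the demethylase that is induced by inflammatory and stress signals, was lower in 3 of the 4 VQ lines. Controls had 188, 166 and 132 CPM. VQ-D2 had 48.3, 48.2, 38.8 and 59.8 CPM, a log2 difference of −1.77 (SE 0.255, adjusted p = 9.85e-06). VQ-D5 had 47.2, 56.2, 46.4 and 71.5 CPM, a log2 difference of −1.61 (SE 0.234, adjusted p = 7.47e-06), and VQ-D1 had 77.0, 56.8, 75.7 and 82.4 CPM, a log2 difference of −1.13 (SE 0.221, adjusted p = 0.000248). Each of these lines lies below all controls. VQ-D4 (130.4, 142, 145 and 165 CPM) and t-VK12653 (87.7, 94.6, 165 and 133 CPM) overlapped the controls, with log2 differences of −0.18 (adjusted p = 0.555) and −0.42 (adjusted p = 0.111). The t-VK12653 difference of Kdm6b passed without t-VK12653 replicate 3 (−0.69, adjusted p = 0.0122).

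Stress and immediate early genes, which handling of cells can induce, had their lowest group medians in VQ-D1, VQ-D2 and VQ-D5, the lines with lowered Kdm6b. Their sum over 16 genes was 16334 CPM in Control replicate 1, which also has the highest Kdm6b, and 5746 and 6214 CPM in the other controls. It was 4485 to 13598 CPM in VQ-D4, 1800 to 10056 CPM in t-VK12653, 990 to 3883 CPM in VQ-D1, 1033 to 2274 CPM in VQ-D5 and 1221 to 1872 CPM in VQ-D2. Of these genes 13 were lower in VQ-D1, 12 in VQ-D2 and 14 in VQ-D5. In VQ-D4 3 were lower and 1 higher, and in t-VK12653 7 were lower. Per line, 26.9% to 32.5% of all genes tested were called lower. Without Control replicate 1 the log2 differences of Kdm6b were −0.98 in VQ-D1, −1.61 in VQ-D2 and −1.46 in VQ-D5, all called. Without VQ-D1 replicate 1 as well, they were −1.002, −1.62 and −1.46 and still called. Within groups the ranks could differ. In VQ-D4 the spleen library had the highest sum (13598 CPM) with Kdm6b at 145 CPM, below 165 CPM in lymph node. Control replicate 3 exceeded replicate 2 in the sum (6214 against 5746 CPM) but not in Kdm6b (132 against 166 CPM). The part of the stress genes in the Kdm6b level was not tested. An antisense gene, Kdm6bos, overlaps Kdm6b and is not among the listed genes.

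Per length, Kdm6b was the more abundant demethylase in controls, with 60.2% to 71.6% of the summed TPM of the pair. In VQ-D1 it made up 95.4% to 100% and in VQ-D4 81.3% to 85.0%, above all controls. In VQ-D2 (38.9% to 48.5%) and VQ-D5 (40.6% to 49.1%) it was below all controls. In t-VK12653 the share was 49.0% to 61.0%. VQ-D1 thus had little RNA of both Ezh2 and Kdm6a and a lowered level of Kdm6b, and VQ-D4 had little Ezh2, reduced Kdm6a and Kdm6b at the control level.

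**Figure D4:**
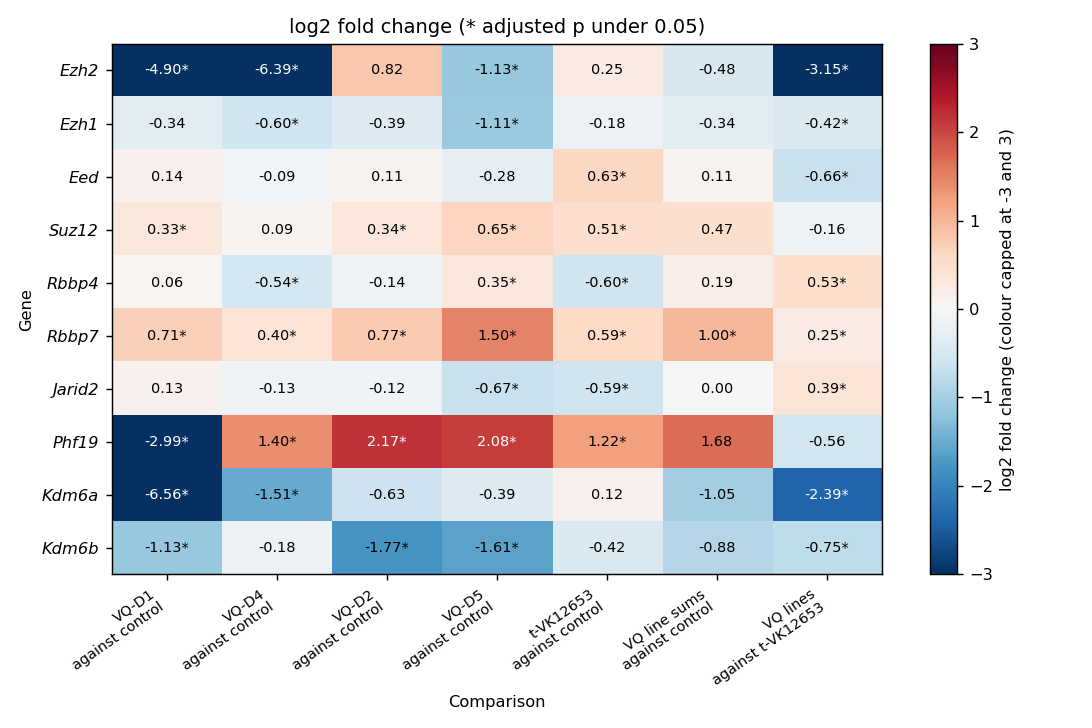
Fitted log2 fold change of each gene (rows) in each comparison (columns); red is higher, blue is lower, colours are capped at −3 and 3, and an asterisk marks an adjusted p under 0.05. Ezh2 and Kdm6a have the largest falls, Rbbp7 is higher in all 5 lines, and Ezh1 is higher in no line.

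Counted over the members, 6 of 10 differed from control in VQ-D1 (2 higher, 4 lower). Of all 12867 genes tested, 29.7% were higher and 29.7% lower in that line. In VQ-D2 3 members were higher and 1 lower, against 29.6% and 27.8% of all genes, and in VQ-D4 2 were higher and 4 lower, against 27.5% and 26.9%. In VQ-D5 4 were higher and 4 lower, against 31.2% and 32.5%, and in t-VK12653 4 were higher and 2 lower, against 28.8% and 28.1%. The number of members called is close to that background. The members' median log2 difference was −0.14 in VQ-D1, −0.16 in VQ-D4, −0.01 in VQ-D2, −0.33 in VQ-D5 and 0.19 for t-VK12653, against medians of −0.04 to 0.02 over all genes. The 5 comparisons share the 3 control libraries. With RLE scaling the split of members became 1 higher and 5 lower in VQ-D1, 2 and 2 in VQ-D2, and 4 and 5 in VQ-D5. The shares of all genes with RLE scaling are not reported here.

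The VQ lines were also compared as a group, first with controls and then with t-VK12653. Against controls, MYC, the Nras allele and growth as a transplanted tumour all differ and cannot be told apart. With counts summed per donor line, 4 VQ lines against 3 controls, Rbbp7 alone was called, with a log2 difference of 1.003 (SE 0.295, adjusted p = 0.0463). Of all 13870 genes in that fit 13.7% were higher and 9.27% lower. The sums of Rbbp7 were 135 CPM in VQ-D1, 95.4 CPM in VQ-D4, 145 CPM in VQ-D2 and 228 CPM in VQ-D5, all above the controls at 73.2 to 76.8 CPM. That call ended when any control, VQ-D1, VQ-D2 or VQ-D5 was left out (adjusted p 0.0621 to 0.157), and with RLE scaling (0.89, adjusted p = 0.0734). The line sums of Ezh2 were, in the same order, 1.72, 0.405, 104 and 24.99 CPM, on both sides of the controls, so the mean difference was −0.48 with an SE of 1.44. It was −2.42 without VQ-D2, −0.12 without VQ-D1 and −0.10 without VQ-D4, and Ezh2 was called in none of these (adjusted p 0.238 to 0.958). Kdm6a (−1.05), Kdm6b (−0.88) and Phf19 (1.68) were not called. Phf19 was called without VQ-D1 (2.05, adjusted p = 0.0224) and Kdm6b without VQ-D4 (−1.32, adjusted p = 0.0106), as was Suz12 without VQ-D4 (0.56, adjusted p = 0.0398).

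Compared with t-VK12653, the VQ lines carry both the Nras allele and IgG1-Cre on top of Vκ*MYC. Set against that line, the 4 VQ lines on average had less Ezh2 (log2 difference −3.15, SE 0.246, adjusted p = 2.08e-09) and less Kdm6a (−2.39, SE 0.224, adjusted p = 3.23e-08). Lower levels were also called for Kdm6b (−0.75), Eed (−0.66) and Ezh1 (−0.42), and higher levels for Rbbp4 (0.53), Jarid2 (0.39) and Rbbp7 (0.25). In all 3 members were higher and 5 lower, against 29.6% and 31.6% of all genes. For Ezh2 this average covers lines on both sides of t-VK12653, since VQ-D2 (81.1 to 103.2 CPM) lay above all of its libraries and the other 3 VQ lines below. For Kdm6a all 4 VQ lines lay below. The Nras allele, IgG1-Cre and the single MYC-only donor cannot be told apart. The p-values of this comparison measure the spread between libraries and not between donors. In bone marrow alone, without VQ-D2, 5 members were called, and Ezh1, Jarid2 and Rbbp7 were not. Rbbp7 also lost its call without t-VK12653 replicate 2 (adjusted p = 0.0685). Suz12 gained one without t-VK12653 replicate 1 or 2 (adjusted p = 0.0274 and 0.0301), and Phf19 without VQ-D1 replicate 4 (−0.83, adjusted p = 0.0288).

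All 10 members differed among the 5 tumour lines, with adjusted p from 1.88e-11 for Ezh2 to 0.0019 for Suz12, in a test in which 88.1% of all genes were called. Spleen and lymph node were each compared with bone marrow, while liver has 1 library and was not tested. The fit has no term for the recipient, so tissues that share a recipient were treated as unpaired. Within lines, spleen against bone marrow gave log2 differences of −0.22 to 0.21 and lymph node against bone marrow of −0.11 to 0.18 over the members. None of the 10 was called by edgeR in either comparison, none had an unadjusted p under 0.05, and DESeq2 called none. Over all genes edgeR called 0% in either direction for spleen, with 829 genes at an unadjusted p under 0.05, and 0.00777% higher and 0.00777% lower for lymph node, with 886. Neutrophil markers had median differences of −3.19 in spleen and −4.40 in lymph node, with 0 of 16 called.

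Of 6 other PRC2 accessory genes tested, Epop (listed under its older symbol E130012A19Rik), which links PRC2 to elongin BC, was at 0.727 ± 0.227 CPM in controls (SD, n = 3). Its mean was 18.1 ± 4.21 CPM for VQ-D1, 18.8 ± 4.83 for VQ-D4 and 16.9 ± 3.05 for t-VK12653, and 81.5 ± 5.66 for VQ-D2 and 69.9 ± 15.3 for VQ-D5 (SD, n = 4 per line). Controls held 7 reads of it in all, so its fold changes are imprecise. Its rise was called in all 5 lines and in the line sums, where the log2 difference was 6.18 (SE 0.878, adjusted p = 0.0058). Phf1, a relative of Phf19, fell in all 5 lines, from 74.2 CPM in controls to means of 4.68 to 18.3 CPM. Mtf2, the other relative, fell in VQ-D4 (12.4 against 41.4 CPM, log2 difference −1.87), in VQ-D1 (−0.73) and in t-VK12653 (−0.73). Lcorl, a cofactor of PRC2 in vertebrates, fell in all 5 lines, with log2 differences of −1.91 to −0.65. In each line 1 of the 6 genes was higher, while 3 were lower in VQ-D1, VQ-D4 and VQ-D5, 2 in VQ-D2 and 4 in t-VK12653. Of all genes tested, 26.9% to 32.5% were called in each direction per line.

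PRC1, the second Polycomb complex, ubiquitinates histone H2A and reads the PRC2 mark through its CBX proteins. Of 24 tested PRC1 genes 4 were higher and 7 lower in VQ-D1, 6 and 9 in VQ-D4, and 5 and 8 in VQ-D2. The counts were 3 and 13 in VQ-D5, and 8 and 6 for t-VK12653. Per line, 26.9% to 32.5% of all genes tested were called in each direction. Bmi1, a RING-finger subunit, was at 129.8 CPM in controls, 769.7 CPM in VQ-D2 and 666 CPM in VQ-D5, and at 41.6 CPM in t-VK12653. It rose by 2.54 on the log2 scale in VQ-D2 (SE 0.154, adjusted p = 1.54e-11) and by 2.38 in VQ-D5 (SE 0.139, adjusted p = 3.24e-12). Phc1, a polyhomeotic subunit, went the other way in these 2 lines, with 1.40 and 2.44 CPM against 17.8 CPM in controls and 49.8 CPM in VQ-D1. Cbx7, a reader of the mark, fell in the 4 VQ lines, with log2 differences from −3.02 in VQ-D5 to −1.38 in VQ-D4, and was at the control level in t-VK12653 (158 and 152 CPM). Scmh1 had 0 reads in VQ-D2, which allows a level of up to 0.128 CPM, against 23.3 CPM in controls.

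**Figure D5:**
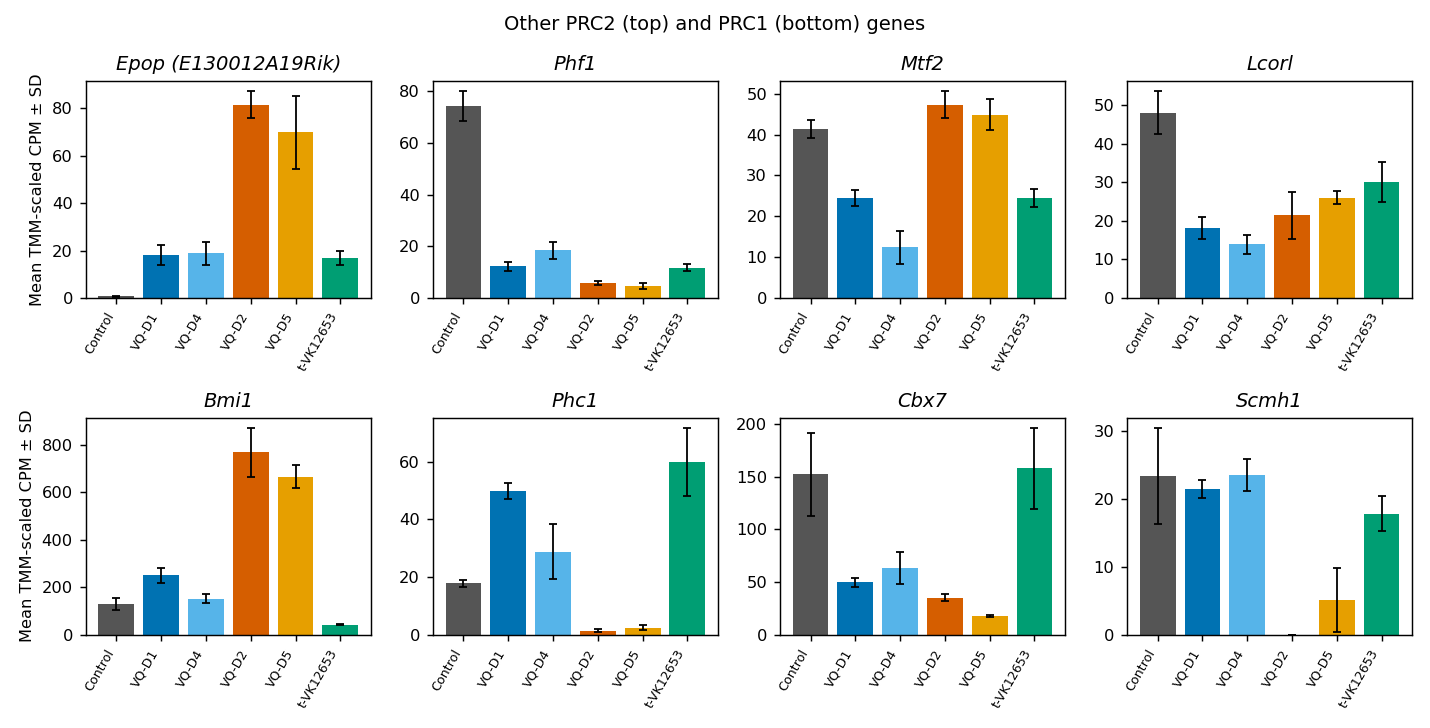
Mean level (y axis, TMM-scaled CPM; error bars, SD) of 4 other PRC2 genes (top) and 4 PRC1 genes (bottom) by group, n = 3 for control and n = 4 for each line. Epop and Bmi1 are highest in VQ-D2 and VQ-D5, and Phf1 is lower than control in all 5 lines.

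Among genes of opposing marks, Kmt2c, a methyltransferase that works with KDM6A, fell in all 5 lines, from 536 CPM in controls to means of 175 CPM in VQ-D1 and 321 CPM in t-VK12653 at the 2 ends. Setd1b, of a related complex, fell in VQ-D4 (−1.38), VQ-D1 (−0.87) and VQ-D5 (−0.37). Paxip1, which also belongs to the KDM6A complex, fell in VQ-D1 (−0.52) and VQ-D4 (−0.90) and rose in VQ-D2 (0.62) and VQ-D5 (1.03). Of the 12 genes listed for H3K4 methylation and H2A deubiquitination, 3 were higher and 8 lower in VQ-D1, and 3 and 7 in VQ-D4. The counts were 2 and 5 in VQ-D2, 3 and 6 in VQ-D5, and 3 and 4 for t-VK12653. The share of all genes was 26.9% to 32.5% in each direction per line.

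Of 11 other histone methyltransferases, 3 were higher and 4 lower in VQ-D1 and VQ-D4, 6 and 3 in VQ-D2 and VQ-D5, and 2 and 3 in t-VK12653. Each direction held 26.9% to 32.5% of all genes tested per line. Suv39h1, which methylates lysine 9 of histone H3, was higher in all 5 lines (16.9 CPM in controls, 29.1 to 65.6 CPM in the lines). Setdb1, another lysine 9 methyltransferase, was at 629 CPM in t-VK12653 against 55.04 CPM in controls, a rise of 3.43 on the log2 scale (SE 0.111, adjusted p = 6.05e-16). Prmt5, an arginine methyltransferase, rose in the 4 VQ lines by 0.70 to 1.70 and fell in t-VK12653 (−0.41).

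Genes reported elsewhere as EZH2 targets were called in both directions in each line. The histone mark was not measured here, and a link of these genes to the Ezh2 level was not tested. Of 18 such genes 12 were tested, and the others fell under the filter on low counts. Hoxd10, Gata4, Gata6 and Slit2 had 0 reads in controls and in t-VK12653, which also had 0 of Cxcl9. Genes at 0 were Hoxa9 in VQ-D1, and Hoxa9, Hoxd10 and Cxcl9 in VQ-D4. They were Cdkn2b, Hoxa7, Hoxa9, Hoxd10 and Gata6 in VQ-D2, and Cdkn2a, Cdkn2b and Hoxa7 in VQ-D5. Depth differs between groups, and 0 reads allow up to 0.305 CPM in controls, 0.181 CPM in t-VK12653 and 0.109 CPM in VQ-D1. Of the tested genes 3 were higher and 7 lower in VQ-D1, with a median log2 difference of −1.25. In VQ-D4 5 were higher and 5 lower, with a median of 0.35. VQ-D2, with the most Ezh2, had 3 higher and 5 lower and a median of −0.87, VQ-D5 had 3 and 5 with a median of −0.41, and t-VK12653 had 6 and 4 with a median of 0.997. The medians over all genes were −0.04 to 0.02, and 26.9% to 32.5% of all genes were called in each direction per line. Cdkn1a, a cell cycle inhibitor, was at 3.72 CPM in controls, 60.4 CPM in VQ-D1, 27.3 CPM in VQ-D4, 22.98 CPM in VQ-D5, 18.4 CPM in t-VK12653 and 2.56 CPM in VQ-D2. Its rise was called in VQ-D1 (4.04 on the log2 scale, SE 0.45, adjusted p = 4.18e-07), VQ-D4 (2.73), VQ-D5 (2.33) and t-VK12653 (2.33). Cdh1, the epithelial adhesion protein E-cadherin, was at 29.2, 32.4 and 47.6 CPM in VQ-D1, VQ-D2 and VQ-D4 against 2.92 CPM in controls and 2.12 CPM in VQ-D5. Runx3, a transcription factor, was at 2.84, 0.841 and 1.99 CPM in those 3 lines against 98.9 CPM in controls and 113 CPM in VQ-D5. Hoxa7 was at 47.6 CPM in t-VK12653 and had 0 reads in VQ-D2 and VQ-D5 and 1 read each in VQ-D1 and VQ-D4, against 4.08 CPM in controls.

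The genes whose levels were most like those of the enzymes were ranked by Pearson's r of log2 CPM over the 23 libraries among 8432 genes with a mean of at least 10 CPM. Libraries of a line share their donor, so r mainly describes the pattern over the lines. For Ezh2 these were Arap2 (r = 0.96), Ift172 (0.95), Sbds (0.95), Itga6 (0.94) and Pptc7 (0.93). For Kdm6a they included Ankrd27 (r = 0.98), Gphn (0.97), Sipa1l1 (0.97) and Reep3 (0.96). For Ezh1 they were Map3k9 (0.91), Zfp677, Bend5, Rnf146 and Impact, and for Kdm6b Hsd11b1 (0.93), Plekhm3, Zbtb7a, Ypel5 and Nr2f6.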

How the data were processed

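RNA-seq of total RNA from 23 libraries was used as deposited. The submitters' processing notes name, with no version, the aligner STAR, the counter featureCounts, the package DESeq2 and the mouse build as GRCm38 or mm10. Libraries were made with a stranded pico-input total RNA kit, per the labels' protocols. Per the file headers, the authors' tables hold a read count, an FPKM and a TPM value for 24063 genes. The deposited counts are whole numbers and not normalized, and they were used for tests and CPM. The deposited TPM, scaled by the authors to gene length, was used to compare genes with each other. FPKM was not used. No source used here states how reads of overlapping genes were assigned.

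Tests were edgeR 4.0.16 quasi-likelihood F-tests (robust) in R 4.3.3 with TMM scaling, filterByExpr with a minimum count of 10 and a minimum total of 15, and p-values adjusted by Benjamini-Hochberg over all genes, called at an adjusted p under 0.05. A fit of all 23 libraries with group and tissue terms gave every comparison except VQ against control, which used counts summed per line (4 sums against 3 controls) with no tissue term. The liver library has its own tissue term. The fit was tested on simulated counts. These were drawn as independent libraries with no shared donor, recipient or tissue effect, so the simulation does not cover those features of the data. Depth was 2685579 to 10047314 counts. A floor of 3 counts bounds a 0 and covers counting error only. The labels do not tie libraries to recipients; recipient numbers, 2 per line, come from names of deposited tables. Replicates of a line are libraries of 1 donor, and p-values then measure only their spread, which may be technical.

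The members and gene lists were chosen with earlier results of these data known. Named genes were all members, up to 4 called genes per list and comparison with the largest change and a level of 5 CPM or more in either group, the 5 genes most like Ezh1, Ezh2, Kdm6a and Kdm6b, and context genes (proliferation, sex-linked and stress genes). The neighbours were chosen after values were seen. Some genes that this rule names are not reported here. Alternatives were RLE scaling, DESeq2 1.42.0, no filter, no abundant non-coding RNA, no tissue term, sums per recipient, a replicate block, bone marrow only and leaving out each library.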

Additional observations from a re-analysis of the deposited data

Results flagged for a closer look

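Among 50 groups of 4 libraries examined (10 genes in 5 lines), 3 held a library far from the others, and chance marks about 1 in 20. Ezh2 in VQ-D5 replicate 1, from bone marrow, was at 12.9 CPM, while the other 3 libraries lay between 24.5 and 26.5 CPM. Ezh1 in VQ-D2 replicate 3, from lymph node, was at 65.7 CPM against 52.2 to 53.9 CPM in the others. Rbbp7 in the same library was at 117 CPM against 135 to 137 CPM.

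A pair of genes, Phf19 and Rbbp4, were called in opposite directions in different lines, and the differences among the lines were themselves tested. Phf19 was lower than control in VQ-D1 and higher in the other 4 lines (edgeR adjusted p of the differences among lines 1.04e-07). Rbbp4 was lower in VQ-D4 and t-VK12653 and higher in VQ-D5 (edgeR adjusted p 1.26e-08). No explanation was tested.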

How the results depend on the processing

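Of 2050 gene values over 37 settings, 1915 kept direction and side of the threshold, 59 lost and 49 gained a call, and 27 changed sign. The falls of Ezh2 in VQ-D1, VQ-D4 and VQ-D5 and of Kdm6a in VQ-D1 were called in all settings run; that of Kdm6a in VQ-D4 was lost in bone marrow alone.

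The count of members called moved by over 1.5 times as follows. VQ-D2 against control had 3 to 7 over the libraries left out, with 7 without VQ-D1 replicate 1. VQ-D4 against control had 2 in bone marrow alone, and the VQ lines against t-VK12653 had 5. The line sums had 0 members called with RLE scaling, with no filter, with non-coding RNA of high abundance removed, and in bone marrow alone. They had 7 when the VQ coefficients of the 23-library fit were averaged instead, where error is the spread between libraries and not between lines. The line sums had 0 to 3 when a control or a line was left out. A further setting, chosen after seeing the data, left out Control replicate 1 and VQ-D1 replicate 1 together and gave 0 members there. RLE scaling moved the median log2 difference of all genes in the line sums from 0.19 to 0.0686. The cause of these moves was not tested. In the main fit 26.9% to 32.5% of all genes were called in each direction per line. For the line sums 13.7% were higher and 9.27% lower. Shares of all genes in the other settings are not reported here, so these counts cannot be set against their own background.

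All sign changes were in small log2 differences. Rbbp4 in VQ-D1 became −0.0301 with RLE and −0.0271 with DESeq2. Rbbp4 in VQ-D2 became 0.0399 with sums per recipient, and in the line sums −0.0651 with averaged coefficients and −0.0512 to 0.321 with a line or control left out (−0.0512 without VQ-D5). Eed in the line sums became −0.0113 with RLE, −0.0099 with DESeq2, −0.0842 in bone marrow alone and −0.0316 with averaged coefficients, and ran from −0.0242 (without VQ-D2) to 0.159 with a line or control left out. Eed ran from −0.135 to 0.0486 in VQ-D4, where leaving out VQ-D4 replicate 1 turned it, and from −0.0515 to 0.178 in VQ-D2, where VQ-D2 replicate 2 did. Jarid2 in the line sums became −0.117 with RLE and DESeq2, −0.0051 with no filter, −0.0617 with abundant non-coding RNA removed, −0.176 in bone marrow alone and −0.199 with averaged coefficients (called, adjusted p = 0.0496). It ran from −0.126 to 0.0811 with a line or control left out, and was −0.051 without the pair of libraries. Suz12 in VQ-D4 became −0.0125 with no tissue term and −0.0434 with sums per recipient. Kdm6a in t-VK12653 ran from −0.0863 (without Control replicate 2) to 0.42.

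The replicate numbers of the labels did not pair libraries: deviations of same-numbered libraries correlated at a median of 0.018 (−0.222 to 0.142). With a replicate block, members called against control were 6 for VQ-D1, 6 for VQ-D4, 5 for VQ-D2, 8 for VQ-D5 and 7 for t-VK12653. In the main fit 26.9% to 32.5% of all genes were called in each direction per line. The share of all genes under the block is not reported here. The block also called Ezh1 in VQ-D2 (−0.52) and Kdm6b in t-VK12653 (−0.48). The line sums have no numbers to block on. For Phf19, with 11 to 395 reads per group, depth limits the precision.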
